A study of Mus musculus with 6 samples.

Results

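Hepatocytes make most of the complement and clotting proteins of blood plasma, and 35 of these genes, without the serpins, were followed in hepatocytes of mice with induced miR-143. The genes were taken from a written list of complement, lectin pathway, coagulation and fibrinolysis proteins that hepatocytes secrete, and all 35 were found among the 20416 genes measured. The study compared 3 miR-143DOX mice, which carry a doxycycline-inducible miR-143 allele, with 3 wildtype littermates, here called control. All 6 animals were adult C57BL/6 mice, and all drank 4 mg/ml doxycycline with 10% sucrose for 8 days, so the drug and the sugar were shared by both groups. The promoter that drives the inducible allele and the sex of the animals are not given in the sources used here. Each array holds the RNA of hepatocytes isolated by liver perfusion from 1 animal.

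Complement is a chain of plasma proteases and binding proteins. The lectin branch, opened by mannose-binding lectins, and the classical branch both cleave C4 and then C3. Cleavage of C5 then starts the assembly of the terminal proteins into a pore in the target membrane. Coagulation is a second protease chain, in which tissue factor with factor VII, or the contact proteins, lead to thrombin, and thrombin turns fibrinogen into fibrin. Plasminogen dissolves the clot again. In the liver, interleukin-6 raises fibrinogen and several complement components as part of the acute phase response, and HNF1, HNF4 and C/EBP factors drive many of these genes.

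None of the 35 genes passed 5% false discovery rate (FDR) between miR-143DOX and control in limma's moderated test over 15312 genes, and all 35 had an adjusted p of 0.9997. Over all genes tested 0 passed, which is 0%. Values are log2 intensities, differences are miR-143DOX minus control, and n is 3 mice per group throughout. At an unadjusted p under 0.05, 2 of the 35 genes lay lower, F7 and C8b, and 0 lay higher. The share was 5.71% lower, against 1.68% of all genes tested lower and 1.38% higher, 3.06% in either direction. The differences of 30 of the 35 genes lay below 0 (85.7%), against 47.6% of all genes tested, and their median was -0.12, against 0.0083 for all genes tested and 0.0018 for the 10% of tested genes with the brightest values. These counts depended on 1 animal. Without miR-143DOX replicate 1 the median was -0.04, and 24 of the 35 genes lay below 0 (68.6%, against 50.9% of all genes). In that fit 0 of the 35 had an unadjusted p under 0.05, against 2.07% of all genes tested in either direction. When a gene was represented by its brightest probe set instead of the mean, the median was -0.03, against 0.04 for all genes tested. In that setting 23 genes lay below 0 (65.7%, against 41.5% of all genes tested). The groups did not overlap for 3 genes, all lower in miR-143DOX (F7, Plg and Hrg, 8.57%), against 3.73% of all genes tested in that direction, and 0 were separate and higher, against 3.40%. Of the brightest 10% of tested genes, 6.46% were separate and lower and 2.87% lower at an unadjusted p under 0.05.

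**Figure D1:**
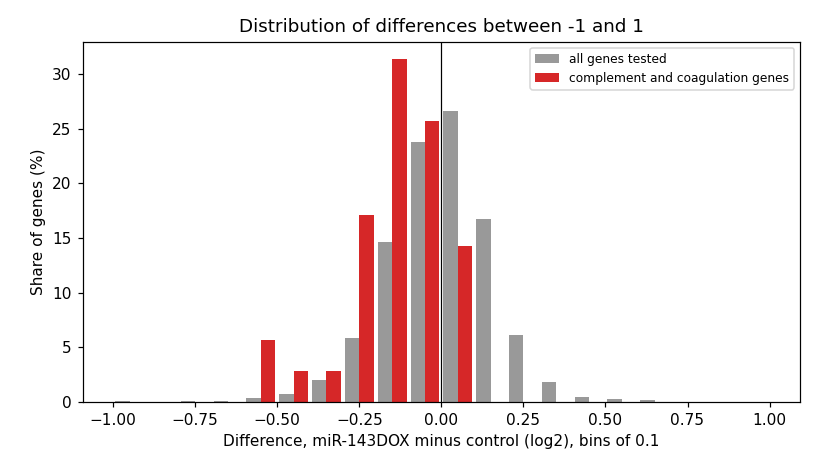
Share of genes (vertical axis, percent) in bins of 0.1 of the log2 difference, miR-143DOX minus control (horizontal axis), for all genes tested (grey) and for the 35 complement and coagulation genes (red). Of the 35 genes, 11 lie between -0.2 and -0.1, 9 between -0.1 and 0, and none above 0.1.

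The arrays correlated at 0.936 to 0.954 across probe sets, and their medians lay within 0.0665 of each other. These values do not measure the quality of the RNA, which was not examined. The hepatocyte marker Alb, serum albumin, stood between 14.11 and 14.51 on all 6 arrays. The mean of 10 hepatocyte markers lay between 12.74 and 13.01 in control and between 12.71 and 12.86 in miR-143DOX. Among these 10, Apoa1 was separate and lower, at -0.15. Of all genes tested 3.73% were, and of the brightest 10% of tested genes 6.46%. Serpina1a, which has near-identical copies, differed by -0.98 (unadjusted p = 0.0218, limma adjusted p = 0.9997), with the first miR-143DOX mouse lowest and the third control highest. Markers of other liver and blood cells were present at low to middle values. The mean of 8 Kupffer cell markers was 7.08 to 7.20 in control and 6.98 to 7.35 in miR-143DOX. That of 9 sinusoidal endothelial markers was 7.73 to 7.83 in control and 7.39 to 7.91 in miR-143DOX. All 9 differences lay below 0, against 47.6% of all genes tested, with a median of -0.11. Clec4g was separate and lower, at -0.37 (unadjusted p = 0.0245, limma adjusted p = 0.9997). Of 7 platelet markers (5.89 to 6.16 in control, 5.97 to 6.21 in miR-143DOX) 1, Ppbp, was under the filter on dim genes at 5.06, and of 6 neutrophil markers 4 were. No gene of these lists passed 5% FDR. The part of other cells in the values below was not tested, and a lower amount of a transcript per cell cannot be told apart from fewer cells that make it.

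For orientation on what controls these genes, the 250 bases before the annotated start are printed for F7 and C8b, the only genes with an unadjusted p under 0.05, and for the fibrinogen genes Fga, Fgb and Fgg, which encode the 3 chains of one protein and had differences near 0. They are RefSeq sequences of GRCm38.p6, 5′ to 3′ on the strand of the gene: chr8:13025784-13026033 on the plus strand, chr4:104766067-104766316 plus, chr3:83025903-83026152 plus, chr3:83049864-83050113 minus and chr3:83007474-83007723 plus. Capitals mark matches, on either strand, to CTGGGAA (the core of the interleukin-6 response element), GTTAAT (an HNF1 core), CAAAGTC (an HNF4 core), TTGCNNAA (a C/EBP motif) or TATAAA (the TATA box). The start used in liver may differ from the annotated one.
F7: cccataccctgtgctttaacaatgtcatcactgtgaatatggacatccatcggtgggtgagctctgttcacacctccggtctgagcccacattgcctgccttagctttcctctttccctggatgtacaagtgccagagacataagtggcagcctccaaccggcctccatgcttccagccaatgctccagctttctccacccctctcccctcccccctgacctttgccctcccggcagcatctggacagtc
C8b: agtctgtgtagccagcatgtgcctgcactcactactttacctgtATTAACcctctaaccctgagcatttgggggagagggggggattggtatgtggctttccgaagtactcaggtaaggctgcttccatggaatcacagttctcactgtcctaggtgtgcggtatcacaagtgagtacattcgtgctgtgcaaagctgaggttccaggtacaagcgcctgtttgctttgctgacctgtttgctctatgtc
Fga: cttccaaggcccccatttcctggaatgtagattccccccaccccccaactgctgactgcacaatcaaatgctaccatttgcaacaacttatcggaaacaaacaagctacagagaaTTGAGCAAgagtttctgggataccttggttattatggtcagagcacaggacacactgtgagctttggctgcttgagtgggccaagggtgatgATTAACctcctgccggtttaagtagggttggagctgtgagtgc
Fgb: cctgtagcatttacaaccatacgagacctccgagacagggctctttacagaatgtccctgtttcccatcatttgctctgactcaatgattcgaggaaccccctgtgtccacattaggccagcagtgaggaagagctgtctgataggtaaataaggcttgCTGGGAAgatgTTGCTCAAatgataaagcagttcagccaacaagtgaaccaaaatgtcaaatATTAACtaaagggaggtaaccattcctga
Fgg: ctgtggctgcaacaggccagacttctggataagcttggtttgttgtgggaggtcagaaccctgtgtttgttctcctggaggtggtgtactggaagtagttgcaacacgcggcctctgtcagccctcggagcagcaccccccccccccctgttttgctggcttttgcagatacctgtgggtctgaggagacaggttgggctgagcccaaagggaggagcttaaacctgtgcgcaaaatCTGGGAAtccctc

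A promoter was given for 28 of the 35 genes. Of these 28, 9 held the HNF1 core (32.1%, against 6.43% of 32851 promoters of the same length), 8 the C/EBP motif (28.6% against 9.56%) and 4 the interleukin-6 core (14.3% against 9.1%). The HNF4 core was found in 1 (3.57% against 3.84%) and the letters TATAAA in 3 (10.7% against 12.4%). Relative to the annotated start, the TATAAA matches began at -239 in Hc, at -132 in Klkb1, and at -137 and -135 in Vtn. Fgb held the interleukin-6 core, the C/EBP motif and the HNF1 core within its last 91 bases before the start, and Fgg the interleukin-6 core. Fga held the C/EBP motif and the HNF1 core, without the interleukin-6 core. Whether matches go with the differences between the groups was not tested. F7 held no exact match to the 5 motifs in this window, and C8b held 1, the HNF1 core. A match is a description of letters and not evidence of binding. Variants of a motif were not searched, so a missing match is not evidence that a factor has no site there.

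Factor VII, encoded by F7, is the protease that tissue factor activates to start clotting. It measured 9.52, 9.49 and 9.45 in control replicates 1 to 3 and 8.86, 9.14 and 9.24 in miR-143DOX replicates 1 to 3. Every miR-143DOX mouse lay below every control mouse, and the control mice lay close together. The means were 9.49 ± 0.03 in control and 9.08 ± 0.20 in miR-143DOX (SD), a difference of -0.40 (95% interval -0.71 to -0.10), so that control was 1.32-fold higher. The unadjusted p was 0.0145 and the limma adjusted p 0.9997. Of the 10 probe sets of F7, 9 had a difference below 0, where 49.3% of all single-gene probe sets did. Of those 9, 5 did not overlap between the groups, and 4.57% of all single-gene probe sets were separate and lower. Probe sets of a gene share the arrays and are not replicates. Without miR-143DOX replicate 1 the difference of F7 was -0.29, and with the median over the probe sets it was -0.37 with an unadjusted p of 0.0696. With its brightest probe set it was -0.35 (unadjusted p = 0.0898 in limma).

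The other vitamin K-dependent proteins lay closer to control. These are prothrombin (F2), factors IX and X, the anticoagulant protein C (Proc), its cofactor protein S (Pros1) and protein Z (Proz), which serves the inhibition of factor X. Of the 7 genes in this group 6 lay below 0, with differences from -0.40 for F7 to 0.04 for F9 and a median of -0.12. F2, whose product thrombin cuts fibrinogen, measured 12.41, 12.38 and 12.59 in control and 12.20, 12.39 and 12.45 in miR-143DOX. The groups overlapped, and the difference was -0.11 (95% interval -0.41 to 0.19). Proz differed by -0.19, Proc by -0.12, Pros1 by -0.12 and F10 by -0.11, and each overlapped between the groups. With their brightest probe sets, Pros1 stood at 0.20 and Proc at 0.0091, so their direction turned. F7, F10 and Proz are consecutive protein-coding genes on chromosome 8. Within each array F7 minus F10 was -0.93, -1.14 and -1.15 in control and -1.44, -1.33 and -1.31 in miR-143DOX. F7 was thus lower relative to its neighbour in each miR-143DOX mouse, by 0.29 on average. The exact two-sided permutation p was 0.1, the smallest that 3 against 3 can give, and 0.3 adjusted over the 6 gene pairs compared. These pairs were chosen after their values were seen.

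**Figure D2:**
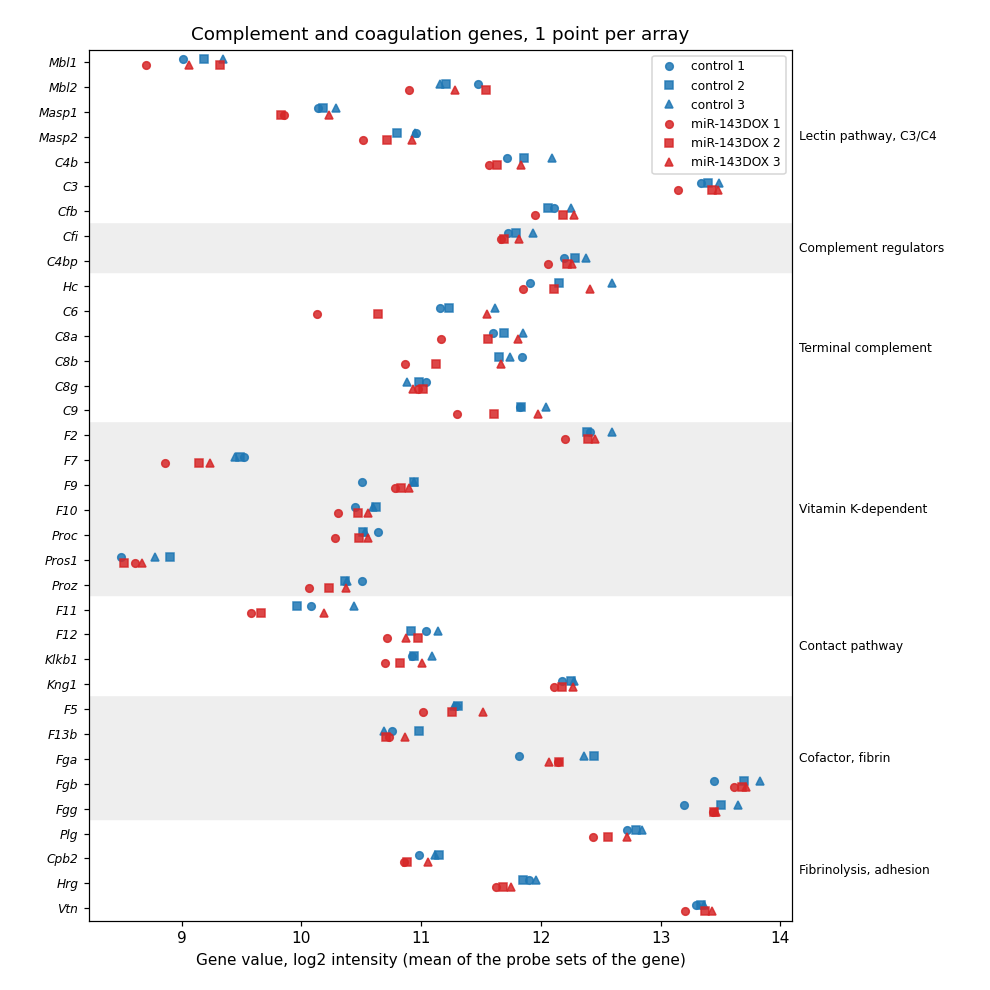
Values of the 35 genes on each of the 6 arrays (horizontal axis, log2 intensity, the mean of the probe sets of a gene), ordered by role, with control in blue and miR-143DOX in red and 1 symbol per replicate number. F7 and Hrg are separate between the groups, and the 3 miR-143DOX mice are spread widely for C6, from 10.13 to 11.55.

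Differences of the terminal complement genes ran from -0.56 for C6 to 0.01 for C8g, and their 95% intervals overlapped. C8 is made of 3 chains from the genes C8a, C8b and C8g, and joins C5, encoded by Hc, with C6, C7 and C9 in the membrane pore. C8b measured 11.85, 11.65 and 11.74 in control and 10.86, 11.12 and 11.66 in miR-143DOX. The first and second miR-143DOX mice lay below all controls, while the third lay within their range. The difference was -0.53 (95% interval -0.94 to -0.12), control being 1.44-fold higher, with an unadjusted p of 0.0158 and a limma adjusted p of 0.9997. All 15 probe sets of C8b lay below 0, from -0.73 to -0.31. Of them 5 were separate, where 4.57% of all single-gene probe sets were separate and lower. Without miR-143DOX replicate 1 the difference of C8b was -0.35 (unadjusted p = 0.0811 in limma). Without miR-143DOX replicate 3 it was -0.75 (unadjusted p = 5.26e-04, limma adjusted p = 0.322). With that mouse left out, 7.37% of all genes tested had an unadjusted p under 0.05. With the brightest probe set C8b differed by -0.41 (unadjusted p = 0.0744 in limma).

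C6 had the lowest difference of the 35 genes and also the widest spread. It measured 11.16, 11.23 and 11.62 in control and 10.13, 10.64 and 11.55 in miR-143DOX. As for C8b, miR-143DOX replicates 1 and 2 lay below all controls and replicate 3 among them, so that the SD was 0.72 in miR-143DOX and 0.25 in control. The difference was -0.56 with a 95% interval from -1.18 to 0.06 (unadjusted p = 0.0730, limma adjusted p = 0.9997). All 16 probe sets lay below 0, yet none was separate between the groups. C6 stood at -0.24 without the first miR-143DOX mouse, at -0.95 without the third and at -0.22 with its brightest probe set.

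C9, the protein that lines the pore, had the same order of mice. It measured 11.83, 11.83 and 12.05 in control and 11.30, 11.61 and 11.98 in miR-143DOX. The difference was -0.27 (95% interval -0.65 to 0.11), and all 11 probe sets lay below 0. It was -0.11 without miR-143DOX replicate 1 and -0.06 with the brightest probe set. C8a differed by -0.20 (95% interval -0.58 to 0.17), with all 15 probe sets below 0. C8g did not follow this pattern of mice. Its values lay between 10.88 and 11.04 on all 6 arrays, and its difference was 0.01 (95% interval -0.27 to 0.28). C8a and C8b are consecutive genes on chromosome 4, and C8g lies elsewhere. C8b minus C8a was 0.25, -0.04 and -0.11 in control and -0.30, -0.43 and -0.15 in miR-143DOX. The groups did not overlap, at a mean change of -0.32 (exact two-sided permutation p = 0.1, the smallest possible, and 0.3 adjusted over the 6 pairs). C8b minus C8g changed by -0.53, but the groups overlapped (exact permutation p = 0.2). Hc, for C5, measured 11.91, 12.15 and 12.60 in control and 11.85, 12.11 and 12.41 in miR-143DOX. These ranges overlap almost fully, and the difference of -0.09 (95% interval -0.52 to 0.33) turned its sign in 3 of 16 alternatives.

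**Figure D3:**
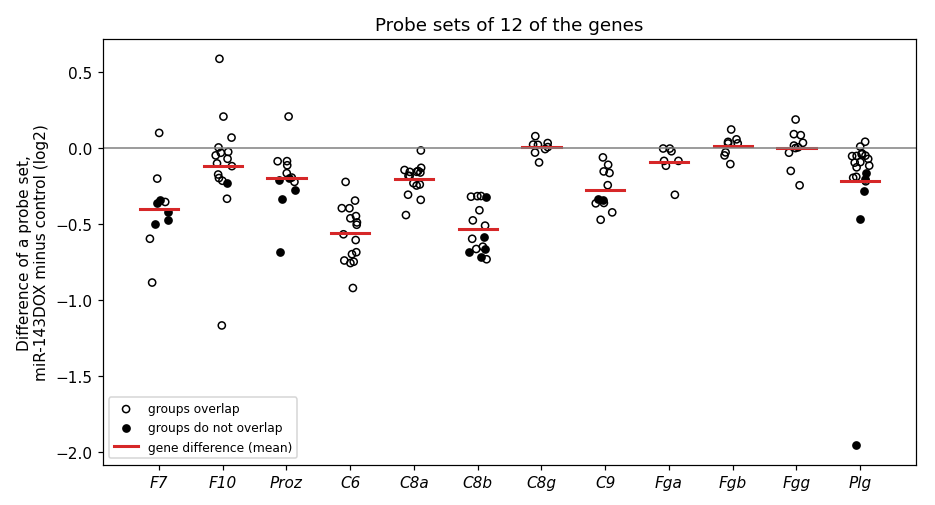
Difference of each probe set, miR-143DOX minus control (vertical axis, log2), for 12 genes, with filled points where the 2 groups do not overlap, open points where they do, and a red line at the difference of the gene. All probe sets of C6, C8a, C8b and C9 lie below 0, those of C8g lie around 0, and 1 probe set of Plg lies at -1.95.

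In the lectin branch and at the centre of complement all 7 genes lay below 0, though 0 had an unadjusted p under 0.05 and none was separate between the groups. C3, on which all branches of complement meet, measured 13.34, 13.40 and 13.48 in control and 13.15, 13.43 and 13.48 in miR-143DOX. Only miR-143DOX replicate 1 was below the control range. The difference was -0.05 (95% interval -0.36 to 0.25), and 0.05 without that mouse. Masp1, a protease that circulates with the mannose-binding lectins, measured 10.14, 10.18 and 10.29 in control and 9.85, 9.83 and 10.23 in miR-143DOX. Replicates 1 and 2 of miR-143DOX were below all controls, and the difference was -0.23 (95% interval -0.55 to 0.09). Its partner Masp2, the protease that cleaves C4, differed by -0.19, and C4b by -0.21, with all 10 and all 18 of their probe sets below 0. C4b has the near-identical copy C4a, so its value may hold signal of both genes. Mbl1 and Mbl2, the mannose-binding lectins, differed by -0.15 and -0.04, and Cfb, the protease of the alternative branch, by -0.0030. The regulators Cfi, which degrades C3b and C4b, and C4bp, which binds C4b, differed by -0.10 each and overlapped between the groups.

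**Figure D4:**
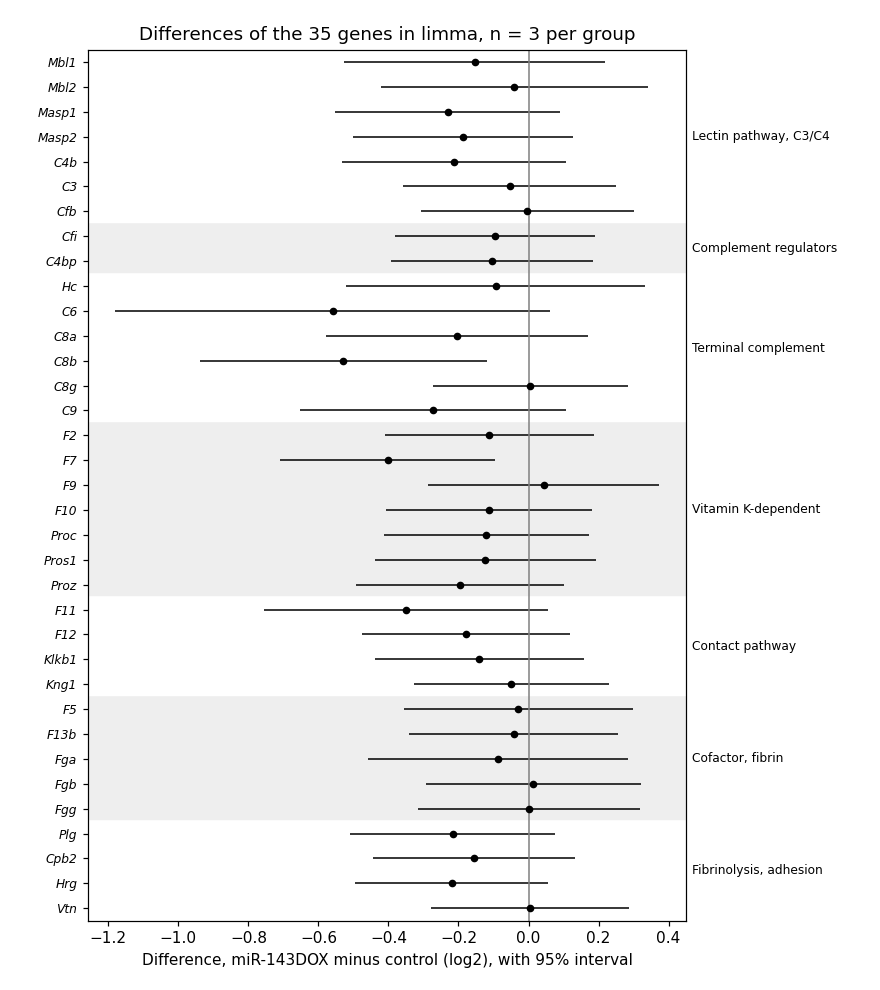
Difference of each of the 35 genes, miR-143DOX minus control (horizontal axis, log2), as points with 95% intervals from limma, ordered by role. The intervals of F7 and C8b lie below 0, and those of the other 33 genes include 0.

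All 4 contact pathway genes lay below 0, with a median of -0.16. F11, the protease that links this pathway to factor IX, measured 10.08, 9.96 and 10.44 in control and 9.58, 9.67 and 10.19 in miR-143DOX. Again the first and second miR-143DOX mice lay below the controls and the third among them. The difference was -0.35 (95% interval -0.76 to 0.06, unadjusted p = 0.0841, limma adjusted p = 0.9997), with 15 of 16 probe sets below 0. F11 was -0.23 and -0.54 when the first or the third miR-143DOX mouse was left out, -0.21 when the third control was left out, and -0.62 with its brightest probe set. F12, which starts the contact chain, differed by -0.18, prekallikrein (Klkb1), the neighbour of F11 on chromosome 8, by -0.14, and kininogen (Kng1), their binding partner, by -0.05. Kng1 has a close copy, Kng2, so its value may hold signal of both.

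Fibrinogen transcripts had differences near 0, with both groups overlapping. Fga measured 11.81, 12.45 and 12.36 in control and 12.15, 12.15 and 12.07 in miR-143DOX. Fgb measured 13.44, 13.69 and 13.83 in control and 13.62, 13.68 and 13.71 in miR-143DOX. Fgg measured 13.20, 13.50 and 13.65 in control and 13.43, 13.45 and 13.46 in miR-143DOX. For each of the 3 genes control replicate 1 was the lowest of the 6 arrays, and the miR-143DOX mice lay together inside the control range. The SD was 0.34, 0.20 and 0.23 in control and 0.05, 0.05 and 0.02 in miR-143DOX for Fga, Fgb and Fgg, and this difference in spread was not tested. The differences were -0.09 for Fga (95% interval -0.46 to 0.28), 0.01 for Fgb (-0.29 to 0.32) and 0.0011 for Fgg (-0.32 to 0.32). Without control replicate 1 they stood at -0.28, -0.09 and -0.12. Within arrays Fgg minus Fgb stayed between -0.25 and -0.18, and its change between the groups was -0.01. The 3 genes lie next to each other on chromosome 3. F5, the cofactor of factor X, differed by -0.03, with miR-143DOX replicates 1 and 3 at 11.02 and 11.52 on either side of the controls (11.28 to 11.31). F13b, the carrier subunit of the enzyme that crosslinks fibrin, differed by -0.04.

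Among the proteins of fibrinolysis and adhesion, Hrg and Plg were separate between the groups. Hrg, for histidine-rich glycoprotein, which binds plasminogen and heparin, measured 11.90, 11.85 and 11.96 in control and 11.62, 11.68 and 11.75 in miR-143DOX. The means were 11.90 ± 0.05 and 11.69 ± 0.06 (SD), and the difference was -0.22 (95% interval -0.50 to 0.06, unadjusted p = 0.109, limma adjusted p = 0.9997). It kept a value between -0.31 and -0.11 over 16 alternatives. Plg, for plasminogen, measured 12.72, 12.80 and 12.84 in control and 12.43, 12.56 and 12.72 in miR-143DOX. The highest miR-143DOX mouse and the lowest control were equal at this rounding, so the separation is narrow. The difference was -0.22 (95% interval -0.51 to 0.08), and 18 of 20 probe sets lay below 0. One probe set stood apart at -1.95, and with the median over the probe sets Plg differed by -0.09. Cpb2, whose product slows fibrinolysis, differed by -0.16, and vitronectin (Vtn), an adhesion protein that also binds the terminal complement complex, by 0.0041.

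Many of the 35 genes shared the same lowest and highest mouse. miR-143DOX replicate 1 held the lowest of the 6 values for 27 of the 35 genes (77.1%), against 15.9% of all genes tested. Control replicate 3 held the highest value for 19 (54.3%, against 15.1%). Averaged over the 35 genes, the deviation from each gene's own mean was -0.0037, 0.07 and 0.16 in control and -0.24, -0.06 and 0.08 in miR-143DOX. These means rose with the replicate number in both groups. The groups overlapped, since miR-143DOX replicate 3 lay above control replicates 1 and 2. The spread was widest for terminal complement, at -0.46, -0.17 and 0.22 in miR-143DOX and 0.05, 0.08 and 0.28 in control. For fibrin and its cofactor the lowest array was a control mouse, at -0.17. What set the level of single mice was not tested.

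**Figure D5:**
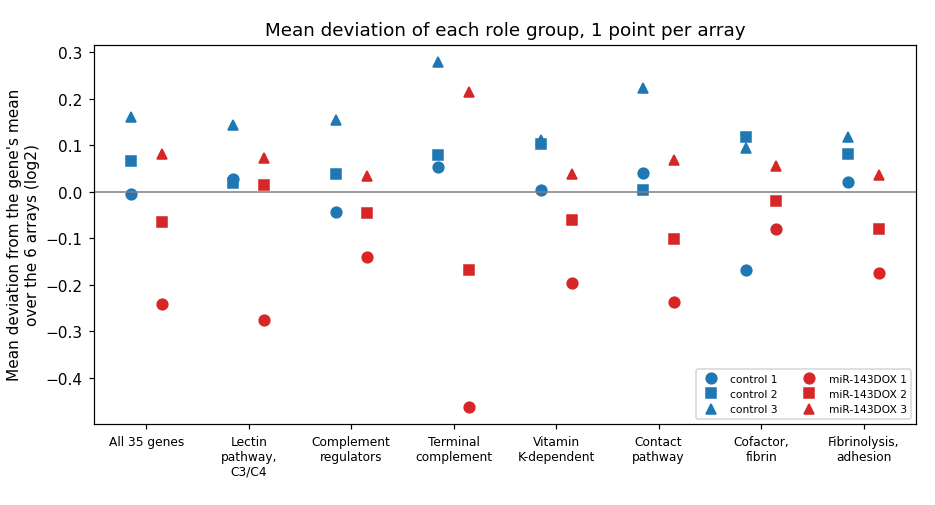
Mean deviation of the genes of each role group from their own mean over the 6 arrays (vertical axis, log2), 1 point per array, with control in blue and miR-143DOX in red. miR-143DOX replicate 1 is lowest in every group but that of cofactor and fibrin, and miR-143DOX replicate 3 lies among the controls.

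Of the 501 probe sets of the 35 genes, 378 had a difference below 0 (75.4%), against 49.3% of all single-gene probe sets, and 51 were separate and lower (10.2%, against 4.57%). Probe sets of a gene share the arrays and are not replicates. All probe sets of a gene lay below 0 for C6, C8a, C8b, C9, C4b, Masp2 and Fga, whereas F10 ranged from -1.17 to 0.59 over 16 probe sets around a gene difference of -0.11.

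Other genes of these pathways, from lists of complement, coagulation and fibrinolysis genes and of liver factors that regulate them, showed 0 of 57 tested past 5% FDR, with 3 lower (5.26%, against 1.68% of all genes tested) and 1 higher (against 1.38%) at an unadjusted p under 0.05. Of 18 other complement genes 11 lay below 0, with a median of -0.04. C1s, a protease of the classical branch, differed by -0.34 (unadjusted p = 0.0483), C2, its substrate, by -0.33, and the membrane regulator Cr1l by -0.26. Among 18 other coagulation genes the median was -0.06, with 0.33 for Gas6, -0.31 for Serpina10, the inhibitor that protein Z assists, and -0.23 for thrombomodulin (Thbd). Among 8 other fibrinolysis genes the median was 0.01. The plasminogen receptor gene Anxa2 differed by 0.33, with miR-143DOX replicate 1 at 6.61 and the other miR-143DOX mice within the control range. The urokinase receptor gene Plaur differed by -0.21 and the plasmin inhibitor gene Serpinf2 by -0.17. Of 13 liver factors, Socs3 differed by 0.56, Il1r1 by -0.73 and the interleukin-6 receptor gene Il6ra by -0.46, each separate between the groups (3.73% of all genes tested were separate and lower, and 3.40% separate and higher), each with a limma adjusted p of 0.9997.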

How the data were processed

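The deposited table holds 1 log intensity per probe set and array, taken as log2 because values run from 1.60 to 15.2. The submitters' processing notes name Partek alone; the authors' background correction, normalization and summary of these deposited log2 values are not given in the sources used here. Members and lists were chosen with earlier results of these data known. Quantile normalization was applied, as percentiles differed by up to 0.135 between arrays. A gene is the mean of the probe sets annotated to it alone (6 to 41 for these 35). A filter removed the dimmest 25% of genes (below 5.06), none of the 35 among them. No detection call was used. Precision is limited by the number of arrays: the 95% intervals of the 35 genes reach a median of 0.31 to either side. Differences were tested with limma 3.58.1 (R 4.3.3, lmFit and eBayes with group as the factor), two-sided, and p-values adjusted by Benjamini-Hochberg over 15312 genes. The fit was tested on simulated data of independent genes, with differences larger than those of the 35 genes. Normalization and the filter were not part of that test. Values on every array are given for the 8 genes of smallest unadjusted p and for C3, Hc, F2, Plg and fibrinogen; up to 3 genes per further list are named by p. Further values of C8g, F5, F10, Alb, Apoa1, Serpina1a and Clec4g were chosen after they were seen.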

Additional observations from a re-analysis of the deposited data

How the results depend on the processing

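The number of the 35 genes past 5% FDR was 0 under all 16 alternatives, with 0 genes past it in all as well. The median difference of the 35 genes stayed below 0, between -0.17 and -0.03. With each array left out in turn it lay between -0.17 (the third miR-143DOX mouse left out) and -0.04 (the first), and the number of genes below 0 between 24 and 33. Of all genes tested, from 43.9% to 53% lay below 0 in these fits. Genes lower at an unadjusted p under 0.05 numbered 1 with the median of probe sets. Of all genes tested, 3.66% then had such a p in either direction, against 3.06% before. The number was 1 with the brightest probe set (F11, and neither F7 nor C8b), beside 2.97% of all genes tested. With array weights it was 3, beside 6.67%. With an array left out it ran from 0 (the first miR-143DOX mouse, beside 2.07%) to 6 (the third, beside 7.37%). F7 alone remained when the second miR-143DOX mouse was left out, beside 1.96%. With the replicate number as a block the number was 4 (C6, C8b, F7 and F11), beside 4.79% of all genes tested. The labels give no source for a pairing, and for that reason the numbers were not taken to pair the mice. Same-numbered mice deviated together with correlations of 0.107, 0.0468 and 0.296. Mice of different numbers had correlations from -0.257 to 0.151, the highest between control replicate 2 and miR-143DOX replicate 1. Whether the replicate numbers stand for a shared factor cannot be told from the labels. Of the 35 genes, 17 changed sign in at least 1 alternative, among them, with the brightest probe set, Cpb2 (0.047), Klkb1 (0.050), Proc (0.0091) and Pros1 (0.20). On the deposited values Fgb stood at -0.0043 and Fgg at -0.0052, with arrays centred on medians at -0.0036 and -0.0045, and with array weights at -0.023 and -0.040. Hc stood at 0.067 with its brightest probe set. With 1 array left out in turn, Hc lay between -0.25 and 0.096, C3 between -0.12 and 0.049, Fga between -0.28 and 0.033, Fgb between -0.092 and 0.10 and Fgg between -0.12 and 0.10. The causes were not tested.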

Other observations

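Some probe sets are assigned to one of the 35 genes and to another gene together, and were left out of the gene values. The 4 shared by C4b and C4a had differences from -0.38 to -0.05, and the 2 shared by Klkb1 and Cyp4v3 differences of -0.16 and -0.10. The 3 shared by Masp2 and Tardbp ranged from -0.28 to 0.35.

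The probe set of F10 with the difference of -1.17 measured 4.33, 7.37 and 7.88 in control and 3.97, 6.69 and 5.42 in miR-143DOX, so that replicate 1 was lowest in both groups. The probe set of Plg at -1.95 measured 7.93, 8.18 and 8.28 in control and 5.60, 5.59 and 7.33 in miR-143DOX.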
